A study of Danio rerio with 11 samples.

Results

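Polyamine synthesis and antizyme genes were followed in the liver of adult zebrafish (strain AB) across induced torpor, low-dose radiation and both together. The members were 10 genes listed by name, with no threshold on a measured value in the rule: odc1, amd1, srm, sms, smox, paox, oaz1a, oaz1b, azin1a and azin1b. They were listed with earlier results of these data known, and the study names odc1 and amd1 as upregulated in torpor with and without radiation. The 10 members matched 11 of the 32520 Ensembl identifiers in the deposited tables, because paox is the name of 2 identifiers, and 9 of the 11 had an adjusted p-value in every comparison. The genes azin1a and azin1b are represented by 2 identifiers annotated AZIN1, ENSDARG00000035869 and ENSDARG00000052789, and which of them is azin1a could not be told from the sources used here.

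Livers of 4 groups were compared by mRNA sequencing. In 18.5-mel (2 libraries) fish were acclimatised to 18.5 °C by weekly steps and then kept with 24 µM melatonin, the induced torpor model. In 28.5-rad (3 libraries) fish stayed at 28.5 °C without melatonin and received whole-body radiation, 32.64 cGy in total per the labels. In 18.5-mel-rad (4 libraries) fish received 18.5 °C, 24 µM melatonin and 32.64 cGy. In 28.5-Ctrl (2 libraries) fish stayed at 28.5 °C with no melatonin and no radiation. Torpor here means low temperature and melatonin together, so the share of each cannot be told apart. The study's methods describe tricaine anaesthesia and transfer to dishes for irradiation, and describe no such step for unirradiated fish. Radiation here therefore means exposure together with that handling, and the share of each cannot be told apart either. The sources used here do not give the sex of the fish, or whether a library is 1 fish, so p-values measure the spread between these libraries.

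The polyamines putrescine, spermidine and spermine are small, positively charged molecules that bind nucleic acids and are needed for translation and cell growth. Ornithine decarboxylase makes putrescine, AMD1 makes the aminopropyl donor from S-adenosylmethionine (SAM), and spermidine synthase and spermine synthase add aminopropyl groups in turn. Oxidases convert the larger polyamines back. When polyamines are abundant, a ribosomal frameshift allows antizyme to be made, and antizyme binds ornithine decarboxylase and sends it to the proteasome, while antizyme inhibitor binds antizyme in its place. Much of this control acts on protein, which mRNA levels do not show.

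The deposited values are the results of each treated group against 28.5-Ctrl, so group values below are estimated mean normalised counts with a range of 1 standard error (SE) to either side, and values for single libraries were not analysed here. A gene was called at an adjusted p-value (Benjamini-Hochberg, over all genes tested) of at most 0.1 and a log2 fold change of at least 0.58 in size, or 1.5-fold. All 3 comparisons share the same 2 control libraries, so agreement between them is not independent. Estimated counts are compared between groups of 1 gene and not between genes.

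Markers of other cell types differed between the groups. In 18.5-mel, 23 of the 23 oocyte marker genes found (of 24 listed) were called higher than in 28.5-Ctrl, with a summed estimated count of 100377 in 18.5-mel, 4843 in 28.5-rad, 328 in 18.5-mel-rad and 849 in 28.5-Ctrl. None of these 23 was at or under 3 counts in 18.5-mel or 28.5-rad, while 7 were in 18.5-mel-rad and 2 in 28.5-Ctrl. In 28.5-rad, 8 of the 10 enterocyte markers found were called higher (median log2 fold change of the 10, 7.04). The 10 summed to 449487 counts in 28.5-rad, 15765 in 18.5-mel, 24011 in 18.5-mel-rad and 25866 in 28.5-Ctrl. Single genes weigh heavily in these sums. The gene apoa4b.1 had 23033 counts in 28.5-Ctrl, 20988 in 18.5-mel-rad and 12319 in 18.5-mel, but 15709 in 28.5-rad, and chia.1 had 301160 in 28.5-rad. The 4 pancreatic enzyme genes found summed to 162023 counts in 18.5-mel-rad, 41861 in 18.5-mel and 31778 in 28.5-rad, against 7959 in 28.5-Ctrl. Only 3 of them had an adjusted p-value, and none was called in any comparison. In 18.5-mel-rad all 3 had an unadjusted p under 0.05 by the Wald test (median log2 fold change 4.44). All 12 hepatocyte markers were detected in every group. They summed to 3.24e+06 counts in 28.5-Ctrl and 3.22e+06 in 18.5-mel-rad, but to 1.13e+06 in 28.5-rad and 1.42e+06 in 18.5-mel. Against 28.5-Ctrl, 0 of the 12 had a positive log2 fold change in 28.5-rad (median −1.50) or in 18.5-mel (median −1.08). In 18.5-mel-rad 5 were positive (median −0.18). Only 1 was called, lower in 18.5-mel. In such bulk samples a change in the number of cells of a type and a change in RNA per cell cannot be told apart.

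In induced torpor without radiation, the 4 enzymes that build polyamines rose together. None of the oxidase, antizyme or antizyme inhibitor genes among the members was called. The genes odc1, amd1, srm and sms were higher in 18.5-mel than in 28.5-Ctrl by 11.4-fold, 4.83-fold, 5.82-fold and 2.65-fold. These were 4 of the 9 members tested, all higher, where 20.4% of the 19554 genes tested were called higher and 9.65% lower. The study names odc1 and amd1 as upregulated here, and the members were listed with earlier results known. The count is thus no test of the members against all genes. The median log2 fold change of the 9 was 0.23, against 0.25 over all genes tested.

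The gene odc1 (ENSDARG00000007377) encodes ornithine decarboxylase, the first and rate-limiting enzyme of the pathway. It had an estimated 896 normalised counts in 18.5-mel (546 to 1470), 414 in 28.5-rad (276 to 621) and 798 in 18.5-mel-rad (562 to 1132), against 78.5 in 28.5-Ctrl (47.6 to 130). The range of every treated group lay above that of 28.5-Ctrl. Its log2 fold change in 18.5-mel was 3.51 (SE 1.01, adjusted p = 0.00464), a fold of 11.4 with a 95% interval from 2.88 to 45.3.

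The gene amd1 (ENSDARG00000043856) encodes S-adenosylmethionine decarboxylase, which supplies the aminopropyl groups for spermidine and spermine. Its estimated count was 263 in 18.5-mel (211 to 327), 105 in 28.5-rad (87.5 to 126) and 208 in 18.5-mel-rad (178 to 242), against 54.5 in 28.5-Ctrl (43.1 to 68.9). The 2 groups in torpor were the highest and did not overlap with either group at 28.5 °C. In 18.5-mel the log2 fold change was 2.27 (SE 0.46, adjusted p = 2.05e-05), the smallest adjusted p-value of any member in any of the 3 comparisons.

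Both genes were also measured by quantitative PCR in the study, in torpor with radiation against the control group, and those data were not analysed here. The study reports a significant increase for amd1. For odc1 it reports only an upward trend, which did not reach significance. The primers are shown because they fix which transcripts were meant. They are printed 5′ to 3′ in lower case as the study lists them, with 22 bases in the amd1 forward primer and 20 in each of the others. RefSeq (GRCz12tu) places odc1 on chromosome 17 and amd1 on chromosome 20.
odc1 forward: tgagtgtgaagtttggagcg
odc1 reverse: gagtttggtgtcctcagagc
amd1 forward: tggaacttactggacgattcac
amd1 reverse: ttgtagtcgttgaagtgggc

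The gene srm (ENSDARG00000055760) encodes spermidine synthase, which turns putrescine into spermidine. It stood at an estimated 638 counts in 18.5-mel (469 to 868), 253 in 28.5-rad (197 to 326) and 180 in 18.5-mel-rad (145 to 225), against 110 in 28.5-Ctrl (80.2 to 150). Torpor without radiation was thus the highest group, apart from the other 3 by more than 1 SE. Its log2 fold change in 18.5-mel was 2.54 (SE 0.63, adjusted p = 0.000791).

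The gene sms (ENSDARG00000008155) encodes spermine synthase, the next step. Its estimated count was 279 in 18.5-mel (210 to 372), 137 in 28.5-rad (109 to 174) and 163 in 18.5-mel-rad (133 to 200), against 106 in 28.5-Ctrl (79.0 to 141). Its log2 fold change in 18.5-mel was 1.40 (SE 0.58, adjusted p = 0.0634). Among the 4 enzymes this call lay nearest the threshold. It was lost under a t distribution with 9 degrees of freedom (adjusted p = 0.155) and when fold changes were taken relative to the median gene, which lay at 0.18 in 18.5-mel among genes of at least 50 counts (adjusted p = 0.113).

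The gene smox (ENSDARG00000036967) encodes spermine oxidase, which returns spermine to spermidine. Its estimated count was 211 in 18.5-mel (137 to 325), 335 in 28.5-rad (236 to 476) and 887 in 18.5-mel-rad (655 to 1201), against 780 in 28.5-Ctrl (508 to 1197). The log2 fold change of −1.88 in 18.5-mel (SE 0.88, adjusted p = 0.103) just missed the threshold. Relative to the median gene it was −2.07 and passed (adjusted p = 0.0696). The summed hepatocyte markers were also lower in 18.5-mel and in 28.5-rad than in 28.5-Ctrl, and their part in the values of smox was not tested.

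The other oxidase, paox, acts on acetylated polyamines. Its 2 identifiers, ENSDARG00000003380 and ENSDARG00000109596, had mean counts of 0.491 and 0.200 over all libraries and no adjusted p-value, so every group lay under 3 counts and no fold is given. A further identifier named paox1 (ENSDARG00000043403), which is not among the 10 and was looked up after its values were seen, is paired with human SMOX by the study's tables. It was at an estimated 31.0 counts in 18.5-mel, at 88.6 in 28.5-rad and at 62.3 in 18.5-mel-rad, against 52.7 in 28.5-Ctrl, with no call in any comparison.

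The synthesis enzymes rose in the same libraries in which 23 of 23 oocyte markers and 6 of 6 proliferation markers were called higher. The proliferation markers summed to 21557 counts in 18.5-mel, to 1842 in 28.5-rad and to 2253 in 18.5-mel-rad, against 450 in 28.5-Ctrl. The part of either list in the rise of odc1, amd1, srm and sms in 18.5-mel was not tested.

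**Figure D1:**
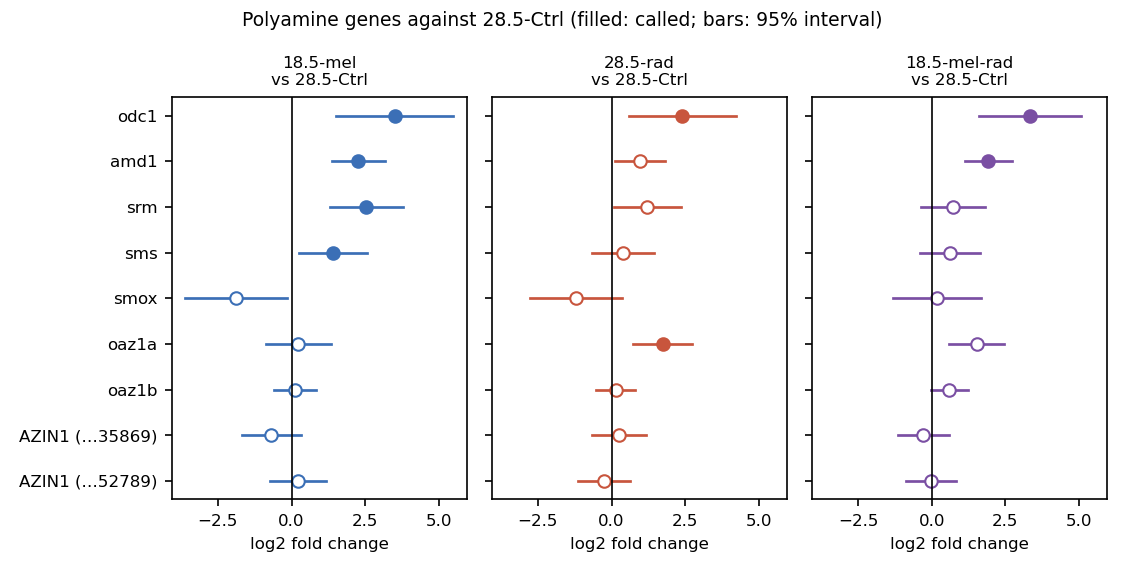
Log2 fold change (x axis) of the 9 tested identifiers in 18.5-mel, 28.5-rad and 18.5-mel-rad, each against 28.5-Ctrl. Points are estimates, bars 95% intervals and filled points called genes: odc1 is filled in all 3 panels, amd1 in both torpor groups, srm and sms in 18.5-mel, and oaz1a in 28.5-rad.

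With radiation at 28.5 °C, odc1 and the antizyme gene oaz1a were called higher, by 5.28-fold and 3.33-fold, and the other enzymes were not called. These were 2 of the 9 members, where 9.69% of the 17459 genes tested were called higher and 2.08% lower. No member was called lower. Since the members were listed with earlier results known, the count is no test of them against all genes here either. The median log2 fold change was 0.38 over the members and 0.20 over all genes tested.

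The log2 fold change of odc1 in 28.5-rad was 2.40 (SE 0.93, adjusted p = 0.0916), with a 95% interval of the fold from 1.49 to 18.7. Estimates for amd1 (0.95, SE 0.43, adjusted p = 0.160) and srm (1.21, SE 0.58, adjusted p = 0.188) were positive but did not pass. For sms the value was 0.38 (SE 0.54, adjusted p = 0.712). The value for smox was −1.22 (SE 0.80, adjusted p = 0.356), and its 95% interval reached 0.35.

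The gene oaz1a (ENSDARG00000071403) encodes ornithine decarboxylase antizyme, the inhibitor that sends the enzyme to degradation. It had an estimated 1742 counts in 18.5-mel (1326 to 2288), 4927 in 28.5-rad (3945 to 6153) and 4254 in 18.5-mel-rad (3509 to 5157), against 1480 in 28.5-Ctrl (1127 to 1944). Both irradiated groups lay above both unirradiated groups with no overlap of the ranges. The log2 fold change was 1.73 in 28.5-rad (SE 0.51, adjusted p = 0.0210).

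Its paralogue oaz1b (ENSDARG00000104782) did not separate in this way, as the range of 28.5-rad overlapped those of both unirradiated groups. It was at 1654 counts in 18.5-mel (1384 to 1977), 1663 in 28.5-rad (1437 to 1924) and 2307 in 18.5-mel-rad (2034 to 2617), against 1516 in 28.5-Ctrl (1268 to 1813). Its log2 fold changes of 0.13 in 18.5-mel (adjusted p = 0.843) and 0.13 in 28.5-rad (adjusted p = 0.844) did not pass the test. Since the 2 paralogues are similar in sequence, reads that match both could be placed on either, and how such reads were treated is not given in the sources used here.

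Antizyme inhibitor, the product of AZIN1, resembles ornithine decarboxylase without its activity and releases the enzyme from antizyme. ENSDARG00000035869 was at 1764 counts in 18.5-mel (1373 to 2265), 3373 in 28.5-rad (2751 to 4137) and 2347 in 18.5-mel-rad (1967 to 2801), against 2849 in 28.5-Ctrl (2219 to 3658). ENSDARG00000052789 was at 153 counts in 18.5-mel (121 to 194), 109 in 28.5-rad (89.7 to 133) and 128 in 18.5-mel-rad (108 to 152), against 130 in 28.5-Ctrl (103 to 166). Neither was called in any of the 3 comparisons, and the 6 log2 fold changes lay between −0.69 and 0.24.

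The enterocyte markers were high in 28.5-rad, and 10 of 23 oocyte markers were called higher there. Their part in the rise of odc1 and oaz1a in that group was not tested. The same holds for immune markers. Of the T cell markers found, 4 of 6 were called higher in 28.5-rad, with a summed count of 715 in 28.5-rad, against 45.5 in 28.5-Ctrl. The neutrophil markers, 1 of 4 tested called higher, summed to 1906 counts in 28.5-rad, against 195 in 28.5-Ctrl, and the macrophage markers, 1 of 3 called higher, to 673 in 28.5-rad, against 361 in 28.5-Ctrl. For oaz1a, the estimated count in 18.5-mel-rad was 4254. That of odc1 was 798 in 18.5-mel-rad and 896 in 18.5-mel, against 414 in 28.5-rad. The enterocyte markers summed to 24011 counts in 18.5-mel-rad, mostly from apoa4b.1, and to 15765 in 18.5-mel, against 25866 in 28.5-Ctrl. Their median log2 fold change in 18.5-mel-rad was −0.14. The pancreatic genes summed to 162023 counts in 18.5-mel-rad, against 7959 in 28.5-Ctrl. The part of either list in the values of oaz1a and odc1 was not tested. When p-values came from a t distribution with 9 degrees of freedom, neither odc1 (adjusted p = 0.274) nor oaz1a (adjusted p = 0.249) was called in 28.5-rad. The call of odc1 was also lost relative to the median gene (adjusted p = 0.104) and without the filter on low counts (adjusted p = 0.144).

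**Figure D2:**
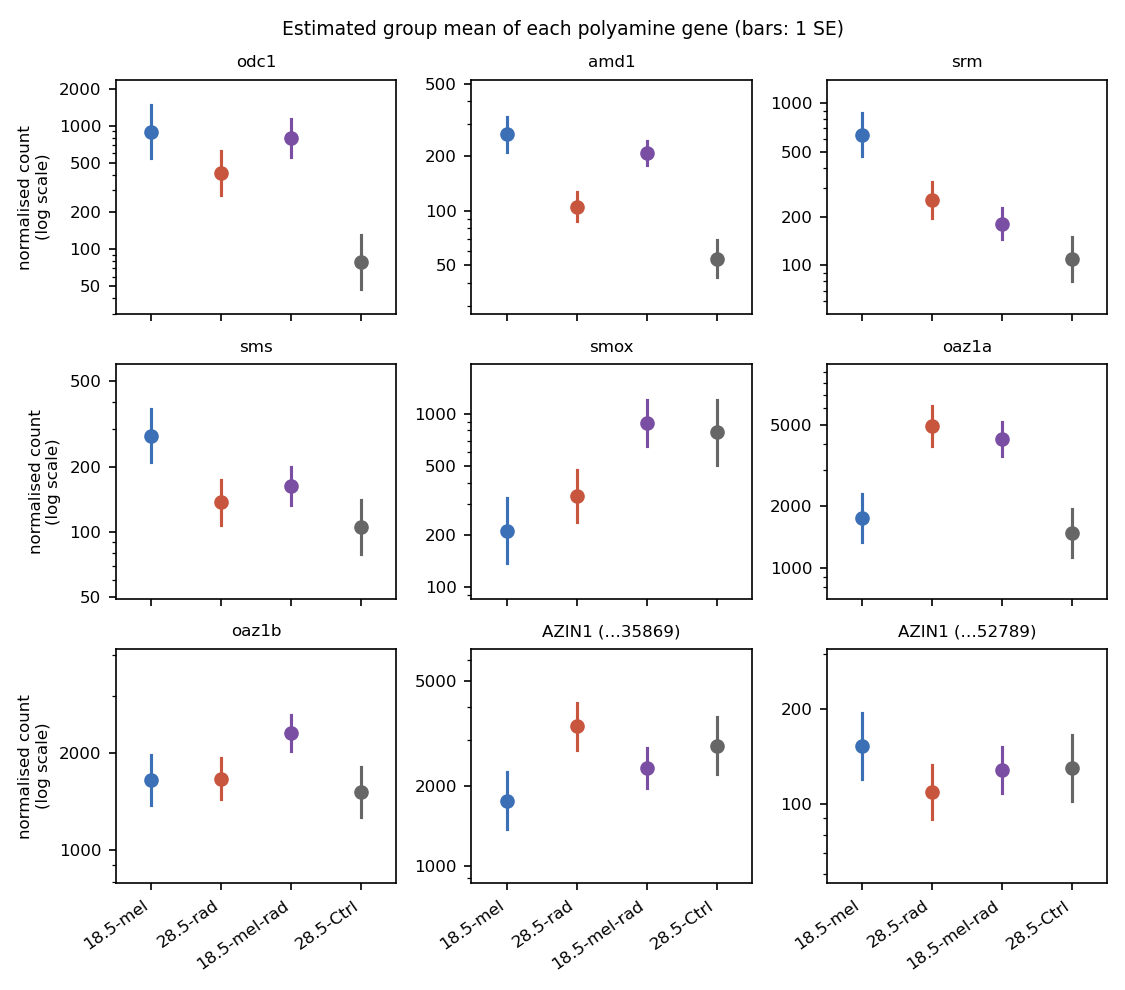
Estimated mean normalised count (y axis, log scale) of the 9 tested identifiers in 18.5-mel, 28.5-rad, 18.5-mel-rad and 28.5-Ctrl (x axis), with bars of 1 SE. The gene odc1 is above 28.5-Ctrl in every treated group, amd1 is highest in the 2 torpor groups, srm in 18.5-mel alone, and oaz1a in the 2 irradiated groups.

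When torpor and radiation were combined, odc1 and amd1 were higher than in 28.5-Ctrl, by 10.2-fold and 3.81-fold, and the 2 synthases were not called. In this comparison 1.02% of the 17979 genes tested were called higher and 0.428% lower, and 2 of the 9 members were among the higher. The study had already named both genes as upregulated here, although its quantitative PCR of odc1 did not reach significance. The members were also listed with earlier results known. This count is therefore not a test of the members against all genes. The median log2 fold change of the members was 0.63, against 0.03 over all genes tested.

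The log2 fold change of odc1 in 18.5-mel-rad was 3.35 (SE 0.88, adjusted p = 0.0221), and that of amd1 was 1.93 (SE 0.41, adjusted p = 0.00123). The gene odc1 was called in all 3 comparisons and amd1 in both torpor groups. For srm the value was 0.72 (SE 0.56, adjusted p = 0.774) and for sms 0.63 (SE 0.52, adjusted p = 0.802). Downstream, smox was at 0.19 (SE 0.76, adjusted p = 0.991).

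The antizyme gene oaz1a had a log2 fold change of 1.52 in 18.5-mel-rad (SE 0.48), and its adjusted p-value of 0.103 just missed the threshold. With genes of at least 10 counts as the only ones tested, it passed (adjusted p = 0.0974). For oaz1b the value was 0.61 (SE 0.32, adjusted p = 0.539).

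The oocyte markers summed to 328 counts in 18.5-mel-rad, against 849 in 28.5-Ctrl, and 0 of the 23 were called by the Wald test in either direction (5 at an unadjusted p under 0.05). Of the 6 proliferation markers 2 were called higher in 18.5-mel-rad, and the part of these lists or of the pancreatic genes in the rise of odc1 and amd1 was not tested. Under a t distribution of 9 degrees of freedom, odc1 (adjusted p = 0.621) and amd1 (adjusted p = 0.441) were no longer called.

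Treated groups were then compared directly, by differences of their log2 fold changes with the variance of the shared controls removed. Between the torpor groups, 18.5-mel-rad and 18.5-mel, srm was lower with radiation and smox and oaz1a were higher. These were 2 members called higher and 1 lower of 9, where 9.38% of all genes tested were higher and 22% lower. The number of members called was thus near the share of all genes.

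The difference of srm, 18.5-mel-rad minus 18.5-mel, was −1.82 (SE 0.55, adjusted p = 0.00597). For smox it was 2.07 (SE 0.76, adjusted p = 0.0302), and for oaz1a 1.29 (SE 0.48, adjusted p = 0.0335). For odc1 the difference was −0.17 with a 95% interval from −1.88 to 1.55, and for amd1 it was −0.34 (SE 0.39, adjusted p = 0.559). Neither was called, and the interval of odc1 is too wide to show that the 2 torpor groups were alike. The oocyte markers summed to 328 counts in 18.5-mel-rad, against 100377 in 18.5-mel. The hepatocyte markers summed to 3.22e+06 counts in 18.5-mel-rad, against 1.42e+06 in 18.5-mel. The part of either list in these differences was not tested.

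Between the irradiated groups, amd1 was the 1 member of 9 that was called, higher in torpor. The difference of amd1, 18.5-mel-rad minus 28.5-rad, was 0.98 (SE 0.35, adjusted p = 0.0361), where 5.76% of all genes tested were called higher and 15.7% lower. For odc1 the difference was 0.95 (SE 0.77, adjusted p = 0.446). The difference of smox was 1.40 (SE 0.67, adjusted p = 0.142), and that of oaz1a was −0.21, with a 95% interval from −1.04 to 0.62. The enterocyte markers were far apart in this pair as well, at 24011 counts in 18.5-mel-rad, against 449487 in 28.5-rad, and their part was not tested.

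Set against radiation, torpor without radiation had more amd1 and srm and less oaz1a. The differences, 18.5-mel minus 28.5-rad, were 1.32 for amd1 (SE 0.41, adjusted p = 0.00863), 1.33 for srm (SE 0.57, adjusted p = 0.0603) and −1.50 for oaz1a (SE 0.51, adjusted p = 0.0154). These were 2 members called higher and 1 lower of 9. In this pair 21.1% of all genes tested were called higher and 18.4% lower, so the number of members called was near the share of all genes. The oocyte markers summed to 100377 counts in 18.5-mel, against 4843 in 28.5-rad, and the enterocyte markers to 15765, against 449487. The part of either list in these differences was not tested. The difference of sms was 1.02 (SE 0.53, adjusted p = 0.127). For ENSDARG00000035869, one of the AZIN1 genes, it was −0.94 (SE 0.47, adjusted p = 0.109).

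The response to radiation was also compared between torpor and 28.5 °C, as the difference of 18.5-mel-rad minus 18.5-mel and 28.5-rad minus 28.5-Ctrl. It was −3.03 for srm (SE 0.80, adjusted p = 0.00177), −1.29 for amd1 (SE 0.58, adjusted p = 0.0806) and 3.29 for smox (95% interval 1.12 to 5.45, adjusted p = 0.0165). For srm the 2 parts were −1.82 in torpor and 1.21 at 28.5 °C, for amd1 −0.34 and 0.95, and for smox 2.07 and −1.22. Thus 1 member was called higher and 2 lower. Of all genes tested 10.7% were called higher and 24.1% lower, so the number of members called was near the share of all genes. The median over all genes was −0.46. The oocyte markers summed to 328 counts in 18.5-mel-rad, 100377 in 18.5-mel, 4843 in 28.5-rad and 849 in 28.5-Ctrl, and the proliferation markers to 2253 counts in 18.5-mel-rad, 21557 in 18.5-mel, 1842 in 28.5-rad and 450 in 28.5-Ctrl. For the hepatocyte markers the sums were 3.24e+06 counts in 28.5-Ctrl, 1.13e+06 in 28.5-rad, 3.22e+06 in 18.5-mel-rad and 1.42e+06 in 18.5-mel. The part of these marker lists in the differences was not tested.

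The value of odc1 was −2.57 (SE 1.28, adjusted p = 0.118), which did not pass, and that of sms was −1.16 (SE 0.74, adjusted p = 0.233). For oaz1a it was −0.45 with a 95% interval from −1.82 to 0.92, and the radiation differences were 1.29 in torpor and 1.73 at 28.5 °C. The call of amd1 was lost relative to the median gene (−1.01, adjusted p = 0.179) and under a t distribution (adjusted p = 0.165). Those of srm and smox remained under both. With the variances of the comparisons added instead, the shared controls were counted again with each comparison. Then srm was the 1 member called in this test and no member was called in the other 3 direct comparisons.

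**Figure D3:**
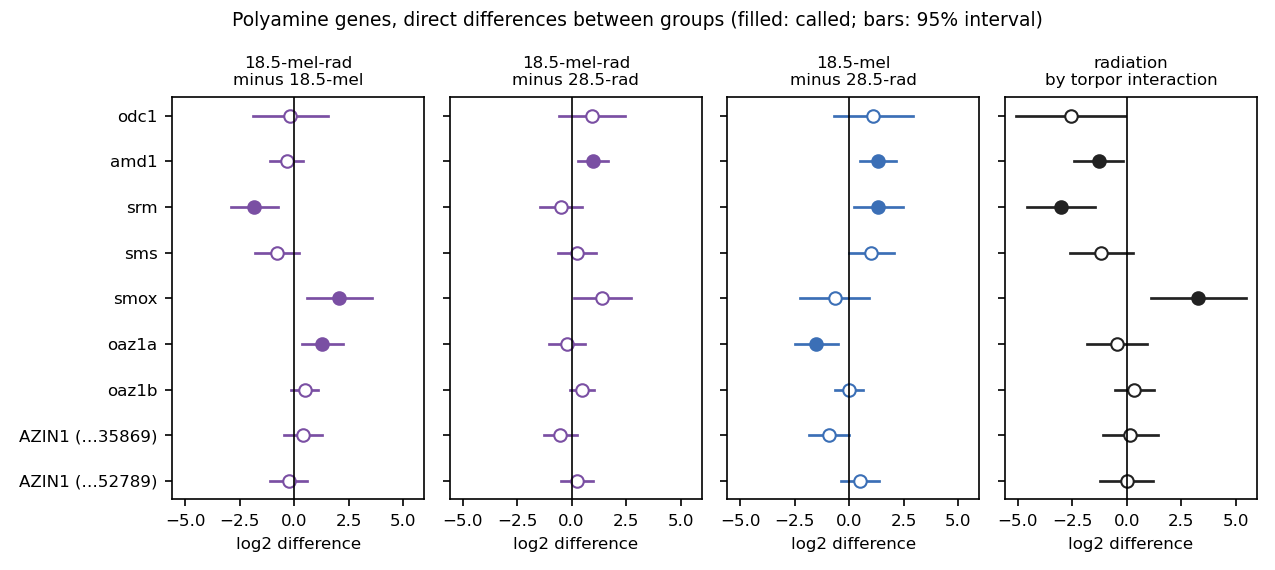
Log2 difference (x axis) of the 9 tested identifiers between treated groups and, in the panel on the right, between the radiation responses in torpor and at 28.5 °C. Points are estimates, bars 95% intervals and filled points called genes: srm is lower and smox higher in both 18.5-mel-rad minus 18.5-mel and the panel on the right, and amd1 is called in every panel but that of 18.5-mel-rad minus 18.5-mel.

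Around these members, 37 further identifiers of polyamine supply, acetylation, transport and use, and of the MYC family, were examined from lists chosen by function (oaz3 and azin2 found no identifier). In 18.5-mel 2 of the 34 with an adjusted p-value were called higher and 5 lower, in 28.5-rad 4 of 33 were higher and 1 lower, and in 18.5-mel-rad 0 of 33 were called by the Wald test, with 2 at an unadjusted p under 0.05. Over all genes tested, 20.4% were called higher and 9.65% lower in 18.5-mel, 9.69% higher and 2.08% lower in 28.5-rad, and 1.02% higher and 0.428% lower in 18.5-mel-rad. The median log2 fold changes were −0.03, −0.30 and 0.05 in these 3 groups.

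Ornithine, the substrate of odc1, is made from arginine by arginase, or through P5C synthase, the product of aldh18a1. The gene aldh18a1 was at 5429 counts in 18.5-mel (3967 to 7429), against 1047 in 28.5-Ctrl (764 to 1433), a log2 fold change of 2.37 (SE 0.64, adjusted p = 0.00223). It was at 898 counts in 28.5-rad and 1084 in 18.5-mel-rad, close to 28.5-Ctrl. The gene agmat, whose mammalian relative is annotated as agmatinase, was lower in 18.5-mel, with 1050 counts, against 2569 in 28.5-Ctrl (log2 fold change −1.29, SE 0.51, adjusted p = 0.0466). With 1339 counts in 28.5-rad and 2515 in 18.5-mel-rad, agmat was called in neither. Neither arg2 nor oat was called in any comparison, and arg1 had a count of 0 in all libraries.

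SAM, the source of the aminopropyl groups, is made by methionine adenosyltransferases. One of the 2 identifiers annotated MAT2A, ENSDARG00000037121, was at 2353 counts in 28.5-rad (1519 to 3647), against 163 in 28.5-Ctrl (95.2 to 280), a log2 fold change of 3.85 (SE 1.00, adjusted p = 0.00881). The other, ENSDARG00000040334, was not called in any comparison, and of the 9 genes of SAM supply and methionine salvage no other passed in any of the 3.

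SAT1, the acetyltransferase that marks spermidine and spermine for export or oxidation, has 3 identifiers, of which ENSDARG00000035652 was higher in 28.5-rad. It was at 9413 counts in 28.5-rad (6492 to 13647), against 1720 in 28.5-Ctrl (1091 to 2712), with a log2 fold change of 2.45 (SE 0.85, adjusted p = 0.0546). Its estimated counts of 5066 in 18.5-mel-rad and 3902 in 18.5-mel were also above 28.5-Ctrl, but it was not called in either. The antizyme gene oaz2b, low at a mean of 11.1 counts over all libraries, went the opposite way to oaz1a in 28.5-rad. It was at 4.46 counts in 28.5-rad and 5.81 in 18.5-mel, against 28.6 in 28.5-Ctrl. Both falls passed the test, with log2 fold changes of −2.68 in 28.5-rad (SE 0.89, adjusted p = 0.0461) and −2.30 in 18.5-mel (SE 0.91, adjusted p = 0.0504). The paralogue oaz2a, at a mean of 5194 counts, was not called in any comparison (log2 fold change −0.42 in 28.5-rad).

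Spermidine also serves to make hypusine, an amino acid found on the translation factor eIF5A. The gene eif5a was lower in 18.5-mel, with 10898 counts (7547 to 15736), against 68217 in 28.5-Ctrl (47246 to 98497), a log2 fold change of −2.65 (SE 0.75, adjusted p = 0.00384). The hypusine enzymes dhps and dohh and the paralogue eif5a2 were not called in any comparison.

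Among transporters, atp13a3, whose human relative is linked to polyamine uptake, was at 107 counts in 18.5-mel, against 546 in 28.5-Ctrl (log2 fold change −2.36, SE 0.64, adjusted p = 0.00237). In 28.5-rad it was at 543 counts, level with 28.5-Ctrl. The genes called higher in 28.5-rad were slc18b1, a vesicular polyamine transporter in mammals, at 376 counts in 28.5-rad, against 93.8 in 28.5-Ctrl (log2 fold change 2.00, SE 0.75, adjusted p = 0.0772), and slc3a2a, a heavy chain of amino acid transporters, at 1767 counts in 28.5-rad, against 26.2 in 28.5-Ctrl (6.08, SE 1.41, adjusted p = 0.00240). For slc3a2a the estimated count was 51.9 in 18.5-mel-rad and 63.8 in 18.5-mel. That of slc18b1 was 326 in 18.5-mel-rad, near 28.5-rad but not called (log2 fold change 1.80, SE 0.71, adjusted p = 0.286), and 124 in 18.5-mel.

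ODC1 is a textbook target of MYC, so the MYC family was listed too. In 18.5-mel the partner gene max was higher, at 1344 counts, against 522 in 28.5-Ctrl (log2 fold change 1.36, SE 0.45, adjusted p = 0.0163). The gene mych was lower, at 246 counts in 18.5-mel, against 1197 in 28.5-Ctrl (−2.28, SE 1.01, adjusted p = 0.0837). No MYC family gene was called in 28.5-rad or 18.5-mel-rad. The hepatocyte, oocyte, proliferation and enterocyte markers also differed between these groups. Their part in the calls among all these pathway genes, higher or lower, was not tested.

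**Figure D4:**
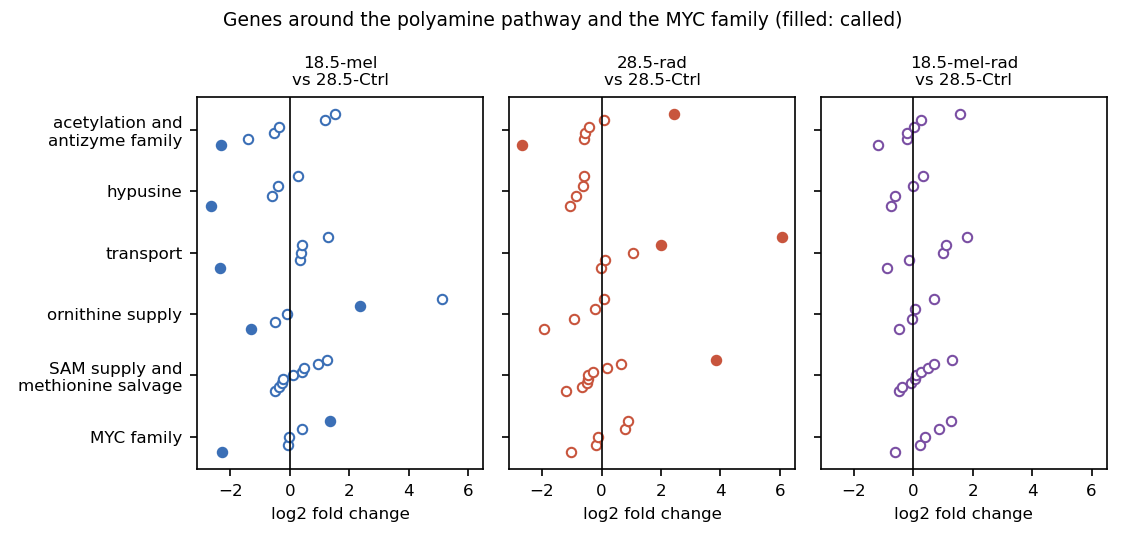
Log2 fold change against 28.5-Ctrl (x axis) of the pathway and MYC family genes with an adjusted p-value, in rows by function and in panels for 18.5-mel, 28.5-rad and 18.5-mel-rad. Each point is 1 identifier and filled points are called, with 7 filled for 18.5-mel, 5 for 28.5-rad and 0 for 18.5-mel-rad.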

How the data were processed

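Per the labels and the study's methods, the authors prepared TruSeq mRNA libraries, checked them with FastQC, trimmed with Cutadapt, aligned to GRCz11 with STAR, counted with HTSeq and compared groups with DESeq2 (versions not given in the sources used here). The authors' fit held 14 libraries in 5 groups, and the 3 libraries of 18.5-rad were not analysed here. The deposited signal is the authors' mean normalised count over these libraries. The deposited log2 fold changes, their standard errors, the score (the Wald statistic) and the p-values are the authors' comparisons with 28.5-Ctrl. Their adjusted p-values are empty for some genes, among them genes of low counts such as paox. The pancreatic gene amy2a, at an estimated 24591 counts in 18.5-mel-rad, also had none, so low counts do not account for every gap.

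Wald p-values (2-sided, normal) were recomputed and adjusted by Benjamini-Hochberg over the same genes as in the deposited tables. They differed from the deposited ones by at most 4.96e-08. Group means were estimated from the mean count and the fold changes, with 18.5-rad set between 28.5-rad and 18.5-mel-rad, and the dispersion of each gene from its 3 standard errors. The formula for direct contrasts was run on simulated counts, with the spread of each gene taken as known and 18.5-rad left unchanged. That run cannot show how well spread is estimated from 2 to 4 libraries a group, or whether the assumption for 18.5-rad holds. All members and, of the other genes, those called, up to 3 per list and comparison, are named. Members and lists were chosen with earlier results of these data known. Alternatives were other thresholds, filters, centring, a t distribution and other assumptions for 18.5-rad. The depth of each library is unknown here, and precision is that of the standard errors. Python 3.11.15, NumPy 2.4.6, pandas 2.3.3 and SciPy 1.17.1 were used.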

Additional observations from a re-analysis of the deposited data

Results flagged for a closer look

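By the test of the difference itself, the response to radiation differed between torpor and 28.5 °C for 3 of the 9 tested members, 1 higher and 2 lower. Of all genes tested 10.7% were called higher and 24.1% lower, so the number of members called was near the share of all genes. The difference was −3.03 for srm and −1.29 for amd1, so the response was lower in torpor, and 3.29 for smox, where it was higher in torpor, against a median of −0.46 over all genes. The call of amd1 was lost relative to the median gene and under a t distribution. With the variances of the comparisons added, and the shared controls counted again with each, srm alone was called. The summed oocyte markers were at 328 counts in 18.5-mel-rad, 100377 in 18.5-mel, 4843 in 28.5-rad and 849 in 28.5-Ctrl. Their part in these differences was not tested. All 3 differences rest on 28.5-Ctrl and 18.5-mel, with 2 libraries each. The summed hepatocyte markers were lower in 28.5-rad and 18.5-mel than in 28.5-Ctrl and 18.5-mel-rad, and their part was not tested either.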

How the results depend on the processing

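No paired analysis was possible because the tables hold comparisons of groups, with no column for a library, and for the same reason no library could be left out in turn. Of 9 members, the number called in 18.5-mel was 4 and between 3 and 6 under every alternative. In 28.5-rad, where 2 were called, there were 0 with a t distribution of 9 degrees of freedom or with a Wald test against a log2 fold change of 0.58, 1 (oaz1a) at an adjusted p of at most 0.05, without the filter on low counts, among genes with a human ortholog alone or relative to the median gene, and 5 at an adjusted p of at most 0.4. In 18.5-mel-rad, where 2 were called, there were 0 with the t distribution and 0 with the Wald test against 0.58. Where the variances of the comparisons were added, the shared control was counted again with each. The calls were then 0 in place of 3 for 18.5-mel-rad minus 18.5-mel and 0 in place of 1 for 18.5-mel-rad minus 28.5-rad. They were 0 in place of 3 for 18.5-mel minus 28.5-rad, and 1 (srm) in place of 3 for the difference of the radiation responses. With the t distribution they were 1 (srm) for 18.5-mel-rad minus 18.5-mel and 0 for 18.5-mel-rad minus 28.5-rad. Relative to the median gene, oaz1b in 18.5-mel changed sign, to −0.056. The assumption for 18.5-rad changed no call. These tests use an estimate of spread over 2 to 4 libraries a group.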
